A study of Mus musculus with 9 samples.

Results

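The genes described here are those of the TGF-beta and BMP pathways, taken as the 62 rows of a table of 55228 genes whose symbols name a TGF-beta, activin, inhibin, BMP or GDF ligand, one of their receptors, a SMAD, a latent TGF-beta binding protein, noggin, chordin or another BMP antagonist, a follistatin or an ID protein. The rule matches symbols and uses no measured value, but the set was proposed with earlier results of these data known. RNA was sequenced from 9 cultures of HC11, an epithelial line derived from the mammary gland of a BALB/c mouse, of which 3 were the parental line (WT) and 3 each were KD1 and KD2. The labels give KD1 and KD2 as Vangl2 knockouts, and the paper calls them knockdowns. Both were made by CRISPR/Cas9, each with its own guide and a repair template that carried stop codons, and each was grown from single colonies. All 9 cultures grew, untreated, in RPMI-1640 that held 10 ng/mL EGF, 5 µg/mL insulin and 10% FBS, and were harvested near confluence before any lactogenic stimulus. WT was the uncloned parental line, and no cloned, nucleofected control was sequenced, so a difference between a line and WT cannot be told apart from a difference between 1 clone and its parental pool. The cultures of a line are the replicates. No source says that they were separate thaws, so p-values measure only the spread between these cultures.

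Ligands of the TGF-beta family are secreted dimers that bring type I and type II receptor kinases together at the cell surface. TGF-beta and activin receptors act through SMAD2 and SMAD3, BMP receptors through SMAD1, SMAD5 and SMAD9, and both sets share SMAD4, while SMAD6 and SMAD7 oppose them. Outside the cell, TGF-beta is stored in a latent form held by LTBP proteins, activins are bound by follistatins, and BMPs are caught by noggin and chordin. In the mammary gland TGF-beta is known as a brake on ductal growth, and the ID genes are classic BMP targets.

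Of the 62 members, 38 passed the filter on low counts and were tested. The 24 that did not pass reached at most 11 counts in any culture, 16 of them had at most 3 counts in every culture, and Bmp4, Bmp5, Bmp10, Gdf1, Gdf6 and Gdf10 had 0 counts in all 9. Values are given in CPM, the counts scaled to library sizes that were adjusted by TMM. A gene is said to have changed, risen or fallen at an adjusted p under 0.05, from the quasi-likelihood test of edgeR adjusted by Benjamini-Hochberg over all 15253 genes tested, and to be called when its absolute log2 fold change was also above 1. Every adjusted p below comes from that test.

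In KD1, 6 members were called higher than in WT and 13 lower, where 9.34% of all genes tested were called higher and 7.49% lower. The 13 were 34.2% of the 38 members tested, and the 6 were 15.8%. In KD2, 9 members (23.7% of those tested) were called higher and 3 (7.89%) lower, where 14.5% of all genes were called higher and 6.71% lower. Setting the edited lines against each other, which uses no WT culture, 12 members (31.6%) were called higher in KD2 than in KD1 and 3 (7.89%) lower, where 14.7% of all genes were called higher and 8.58% lower. The median log2 fold change of the 38 members was -0.24 in KD1, 0.22 in KD2 and 0.40 in KD2 against KD1, and that of all genes tested was -0.03, 0.01 and 0.02. Some members passed the filter through the cultures in which they were high (Bmp7, Nog, Chrd, Gdf9 and Tgfbr3), and requiring at least 10 counts throughout left 33 members. Of these, 6 were called higher and 8 lower in KD1 (18.2% and 24.2%, where 6.23% and 4.50% of all genes were). In KD2, 6 were called higher and 2 lower (18.2% and 6.06%, where 9.54% and 4.27% of all genes were), and in KD2 against KD1, 8 higher and 3 lower (24.2% and 9.09%, where 9.60% and 5.96% were). Both comparisons with WT use the same 3 WT cultures.

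**Figure D1:**
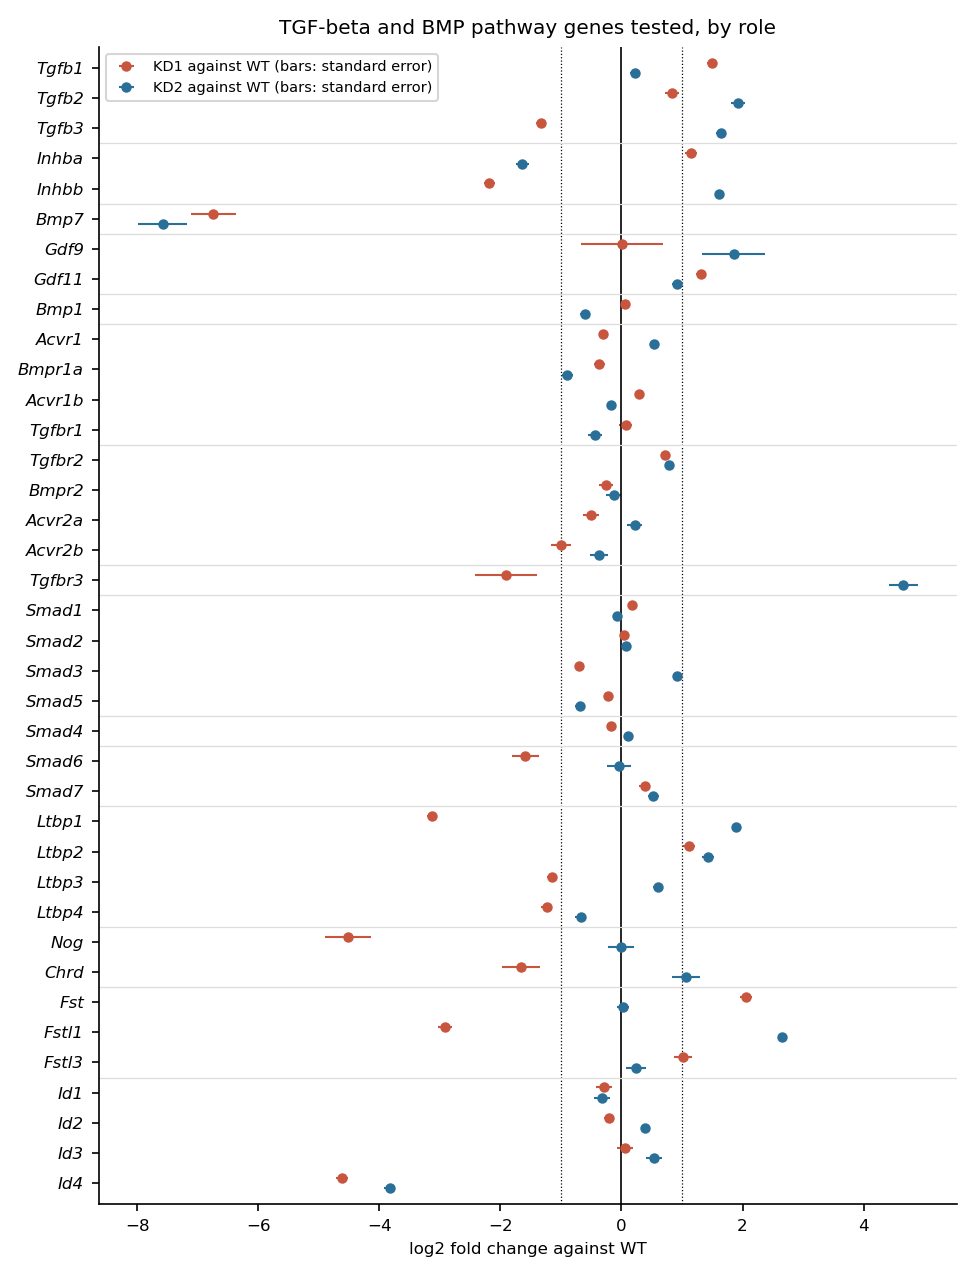
The log2 fold change against WT of each of the 38 tested members, ordered by role from ligands to ID genes, for KD1 (red) and KD2 (blue); bars are standard errors, and dotted lines mark a log2 fold change of 1 in either direction. Type I and type II receptors lie between the dotted lines (Acvr2b in KD1 on one), as do the SMADs other than Smad6 in KD1. The co-receptor Tgfbr3, ligands, latent binding proteins, antagonists, follistatins and Id4 reach from -7.58 (Bmp7 in KD2) to 4.66 (Tgfbr3 in KD2). The fitted values of Bmp7 and Nog in KD1, and of Bmp7 in KD2, depend on the prior count of the fit.

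The calls are counted here by role, in either direction; 16.8% of all genes tested were called in KD1 and 21.2% in KD2. Of the 8 type I and type II receptors tested, 1 was called against WT in KD1 and 0 in KD2, and of the 7 SMADs tested, 1 was called in KD1 and 0 in KD2. Passing the adjusted p alone were 6 of these receptors in each line (in KD2 including Acvr2b, which passed under none of the 16 alternative fits), and 6 SMADs in KD1 and 3 in KD2. Among the other roles, 6 of the 8 ligands tested were called in KD1 and 6 in KD2, all 4 latent binding proteins were called in KD1 and 2 in KD2, and all 5 antagonists and follistatins were called in KD1 and 2 in KD2. These counts include Bmp7, Gdf9, Nog and Chrd, which passed the filter through the cultures in which they were high. No count by role was made without them, and no test compared the roles with each other.

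Depth was 19231428 to 28360592 counts per culture, and 3 counts, taken as the least a library can show, corresponded to 0.0999 to 0.154 CPM. The members together made up 2792 to 2897 CPM in WT and KD1 and 3014 to 3044 CPM in KD2. Vangl2, the edited gene, stood at 3.85 ± 0.421 CPM in WT, 2.48 ± 0.513 in KD1 and 4.00 ± 0.399 in KD2 (mean ± SD, n = 3); it fell in KD1 (log2 fold change -0.63, adjusted p = 0.0058) and its KD2 value of 0.05 did not pass (adjusted p = 0.81). A transcript that carries a stop codon can still be counted, so this level does not by itself check a label. The study also measured the protein by Western blot, and those data were not used here. Keratins 8 and 18 and Epcam, epithelial markers, were present in every culture, although Krt19 was at 0 in all 9. The summed CPM of 6 luminal markers was 1445 to 1583 in WT, 1951 to 2016 in KD1 and 1192 to 1381 in KD2, and that of 7 basal markers was 4192 to 4681, 4974 to 5095 and 2240 to 2889. Krt5 and Krt14 made up most of the basal sum. In KD1, 0 basal markers were called higher and 2 lower (Oxtr, 94.3-fold, and Myh11, 3.58-fold), and in KD2 1 was called higher (Acta2, at 1.54 CPM) and 0 lower. Short of a call, Krt5 (log2 fold change -0.960), Krt14 (-0.899), Trp63 (-0.963), Oxtr (-0.940) and Krt17 (-0.365) fell in KD2. In KD1, Krt17 (0.791) and Trp63 (0.732) rose without being called. A list of 8 fibroblast markers summed to 17 to 23.1 CPM in WT, 8.11 to 10.2 in KD1 and 90.3 to 100.3 in KD2, with 4 called lower in KD1 and 3 called higher in KD2. Those higher in KD2 were Pdgfrb (66.8 CPM, most of the sum), Col1a2 (2.6-fold) and Pdgfra (2.05-fold). The list did not rise as a whole: Col1a1 fell in KD2 (log2 fold change -0.705, adjusted p = 0.0019), and Col3a1 did not pass (-0.167, adjusted p = 0.43). Dcn, with 0 counts in WT, had 6, 3 and 0 in KD2, and Lum, also at 0 in WT, had 3 in each KD2 culture. Endothelial markers reached at most 5.58 CPM in sum, immune markers 8.53 and adipocyte markers 2.94. The part of these marker shifts in the values below was not tested, and in such bulk samples fewer cells of a type and less RNA per cell cannot be told apart.

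Replicate 3 of KD2 stood apart. The chi-square per degree of freedom over genes was 17.4 and 22.1 between it and the other KD2 cultures, which differed from each other by 1.74, and was 1.37 to 1.81 within KD1. In WT, replicate 1 also stood apart, by 13.1 and 10.7 from the others, which differed by 3.38. In replicate 3 of KD2 short genes were higher and long genes lower than in the other KD2 cultures. The median log2 difference was 0.12 over the 3769 genes with the shortest exons and -0.13 over the 3769 with the longest. Over the 38 members the median difference was -0.003, but Acvr2a (-0.62), Bmpr2 (-0.60), Tgfbr1 (-0.54) and Inhba (-0.45) were lower there and Smad6 (0.60), Id3 (0.58), Chrd (0.48) and Id1 (0.38) higher. Without replicate 3 of KD2, 8 members were called higher and 3 lower in KD2 against WT, and without WT replicate 1, 9 were called higher and 3 lower. Leaving out WT replicate 1 turned the near-0 values of Fst in KD2 (-0.003), Id3 in KD1 (-0.030) and Vangl2 in KD2 (-0.038). It also gave 12 calls lower in KD1, the lost call being Acvr2b. The same count followed without WT replicate 2, KD1 replicate 1 or 2, or any KD2 culture.

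The TGF-beta ligands went separate ways in the edited lines. Tgfb1, whose product is the most widely expressed TGF-beta, stood at 32.2, 40.1 and 36.4 CPM in WT, 99.5, 106 and 102 in KD1 and 42.1, 39.7 and 46.1 in KD2. Every KD1 culture lay above every other culture, and the KD2 values overlapped those of WT. Tgfb1 rose 2.83-fold in KD1 (log2 fold change 1.50 ± 0.08, SE, adjusted p = 1.6e-09) and by 0.23 on the log2 scale in KD2 (adjusted p = 0.024), the latter without passing when WT replicate 1 was left out (0.15, adjusted p = 0.12). Tgfb2 ran the other way between the lines, at 5.02, 3.92 and 4.10 CPM in WT, 7.68, 7.86 and 7.58 in KD1 and 17.8, 16.4 and 14.9 in KD2, with no overlap between groups. It rose by 0.83 in KD1 (adjusted p = 3.9e-05) and by 1.92 in KD2 (adjusted p = 4.6e-09), and only the latter was called. Tgfb3, at 16.0, 19.2 and 18.5 CPM in WT, was at 7.49, 6.49 and 7.42 in KD1 and 56.0, 56.0 and 56.4 in KD2. Its groups did not overlap, WT lying between the edited lines. Tgfb3 fell 2.51-fold in KD1 (log2 fold change -1.33 ± 0.09, SE, adjusted p = 1.8e-08) and rose 3.13-fold in KD2 (1.65 ± 0.08, adjusted p = 5.3e-10), so that KD2 exceeded KD1 7.86-fold (adjusted p = 1e-12). Exons of Tgfb2 and Tgfb3 overlap predicted genes on the other strand, by 124 bases for Tgfb2.

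The activin subunit genes moved in opposite directions, and each moved oppositely in the 2 edited lines. Inhba encodes the beta A subunit, which forms activin A, and Inhbb the beta B subunit, which forms activin B. Inhba was at 320.5, 260.3 and 279 CPM in WT, 639, 651 and 619 in KD1 and 100.2, 101 and 73.7 in KD2. The KD1 cultures were all above WT and the KD2 cultures all below it. Inhba rose 2.22-fold in KD1 (log2 fold change 1.15 ± 0.10, SE, adjusted p = 4.3e-07) and fell 3.12-fold in KD2 (-1.64 ± 0.11, adjusted p = 1.3e-08). Inhbb was at 36.6, 43.4 and 40.7 CPM in WT, 8.86, 9.32 and 8.47 in KD1 and 120, 117 and 134 in KD2. Here the KD1 cultures were the lowest and the KD2 cultures the highest, again without overlap. Inhbb fell 4.53-fold in KD1 (log2 fold change -2.18 ± 0.09, SE, adjusted p = 6.8e-11) and rose 3.07-fold in KD2 (1.62 ± 0.08, adjusted p = 5.1e-10). Between the edited lines the difference was 6.93-fold for Inhba, lower in KD2, and 13.9-fold for Inhbb, higher in KD2. Per kilobase of exon, Inhba stood at 44.9 ± 4.83 CPM in WT against 9.46 ± 0.802 for Inhbb; in KD1 the levels were 99.6 ± 2.54 and 2.09 ± 0.0999. In KD2 the order was turned, with Inhbb at 29.1 ± 2.16 CPM per kilobase (mean ± SD, n = 3) and ranking sixth among members while Inhba was outside the highest 10. Inha, the alpha subunit that makes inhibins, had at most 1 count in any culture.

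The upstream sequences of these subunit genes are shown because the genes moved in opposite directions; they are the 250 bases before the RefSeq start, 5′ to 3′ on the gene's strand, from GRCm38.p6. Inhba lies at chr13:16011601-16011850 on the plus strand and Inhbb at chr1:119422249-119422498 on the minus strand. Capitals mark any of 4 motifs on either strand: GTCTAGAC and CAGACA, sites of SMAD3 and SMAD4, and GGCGCC and GGAGCC, GC-rich sites of SMAD1 and SMAD5 (GGCTCC is GGAGCC, and TGTCTG is CAGACA, read on the other strand). Among all 32851 RefSeq starts of the table, 0.167%, 17.1%, 9.59% and 26% held these motifs in the same 250 bases, and among the 44 members with an entry 0, 6, 8 and 20 did.
Inhba: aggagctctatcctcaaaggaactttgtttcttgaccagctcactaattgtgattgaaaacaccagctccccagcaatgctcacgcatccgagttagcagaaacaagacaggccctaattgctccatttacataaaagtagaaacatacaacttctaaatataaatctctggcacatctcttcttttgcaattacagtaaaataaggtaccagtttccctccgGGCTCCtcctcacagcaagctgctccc
Inhbb: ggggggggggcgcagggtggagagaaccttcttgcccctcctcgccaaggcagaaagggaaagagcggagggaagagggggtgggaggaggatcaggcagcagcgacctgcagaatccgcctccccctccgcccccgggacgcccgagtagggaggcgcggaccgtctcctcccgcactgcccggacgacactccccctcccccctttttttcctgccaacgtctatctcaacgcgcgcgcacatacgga
GC content was 43.2% in the Inhba sequence and 68.0% in that of Inhbb, with 1 match in the former and 0 in the latter. A match is a description of letters, and no match in this window bears on whether a factor acts elsewhere.

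Of the BMP and GDF ligand genes, Bmp7, Gdf9 and Gdf11 passed the filter and were tested. Bmp7, a BMP made by many epithelia, had 114, 154 and 128 counts in WT (5.84, 6.16 and 6.25 CPM), while KD1 had 0, 2 and 2 counts and KD2 had 2, 0 and 0. Bmp7 was under the floor of 3 counts in all 6 edited cultures, and every WT culture lay above them. By summed counts the ratio of WT to KD1 was 118 (95% interval 45.6 to 434, exact, counting error only) and that of WT to KD2 was 229 (62.9 to 1896). Bmp7 was called lower in KD1 (adjusted p = 2e-09) and in KD2 (adjusted p = 2.2e-09). Its KD2 value against KD1 did not pass (adjusted p = 0.51), at counts too low to show a difference between the edited lines. Gdf11, which acts through activin receptors, was at 13.3, 15.1 and 15.0 CPM in WT, 34.9, 37.2 and 35.5 in KD1 and 26.4, 28.1 and 27.2 in KD2. All 6 edited cultures lay above WT. Gdf11 rose 2.47-fold in KD1 (log2 fold change 1.31, adjusted p = 2.3e-09) and 1.88-fold in KD2 (0.91, adjusted p = 1.1e-07), the latter short of the 2-fold limit. Gdf9, best known from the oocyte, was at 0.0403 to 0.307 CPM over the WT and KD1 cultures and 0.404 to 0.699 in KD2. It was called higher in KD2 (log2 fold change 1.85 ± 0.52, SE, adjusted p = 0.0065), but not when only the 6 cultures compared were fitted. With 6, 3 and 1 counts in WT its value depended on single WT cultures, at 2.63 without WT replicate 1 and 1.49 without WT replicate 3. Bmp4 had 0 counts throughout and Bmp2 had 1 count in 1 WT culture, and no BMP ligand gene had more than 11 counts in any edited culture. Bmp1, at 67.2 to 106 CPM in the group means, encodes the procollagen C-proteinase and is no BMP ligand. Bmp1 fell by 0.61 on the log2 scale in KD2 (adjusted p = 8.2e-06).

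**Figure D2:**
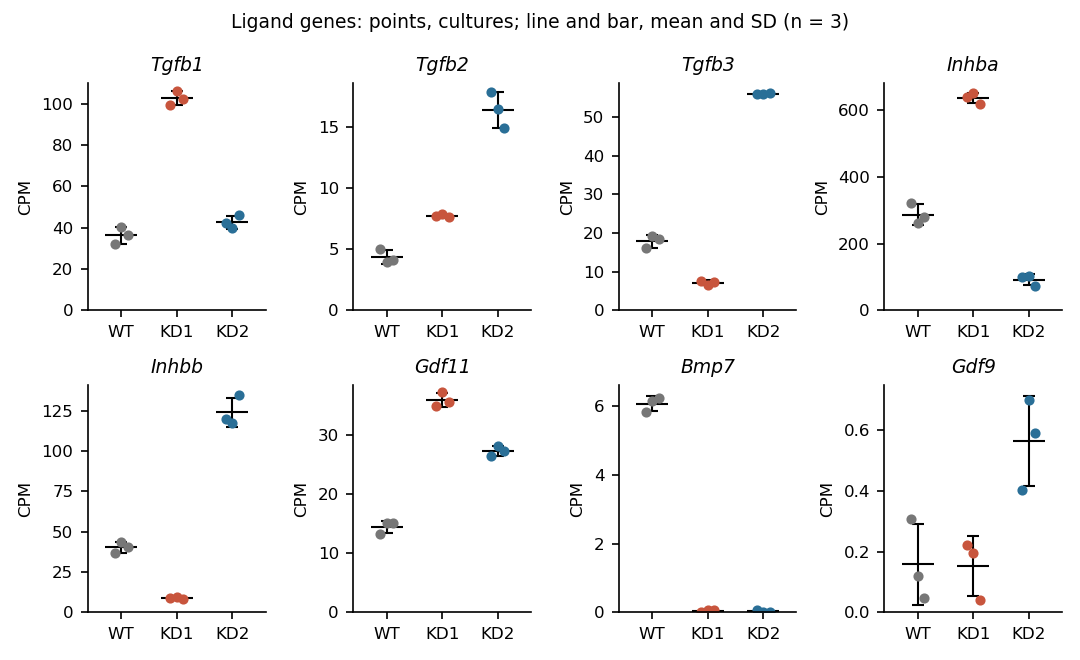
CPM in each culture (points) of 8 ligand genes in WT, KD1 and KD2, with mean and SD over 3 cultures; each vertical axis starts at 0 and has its own scale. Inhba and Inhbb are mirror images over the lines, Tgfb1 is highest in KD1 (99.5 to 106 CPM), Tgfb3 in KD2 (56.0 to 56.4 CPM), and Bmp7 is near 0 in all 6 edited cultures.

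The signalling receptors differed from WT by less than 2-fold in each line, other than Acvr2b in KD1, which was at that limit. TGF-beta binds Tgfbr2, the type II receptor, whose CPM was 150.3 to 167 in WT, 255 to 261 in KD1 and 264 to 277 in KD2. Both edited lines lay above WT, by 0.72 (adjusted p = 9.7e-08) and 0.78 (adjusted p = 3.5e-08) on the log2 scale, and the difference between them, 0.06, did not pass (adjusted p = 0.33). Tgfbr1, the type I partner, did not pass in KD1 (log2 fold change 0.07, adjusted p = 0.62) and fell by 0.43 in KD2 (adjusted p = 0.003). Its KD2 cultures were at 147.2, 148.8 and 101.8 CPM, the lowest being replicate 3. The KD2 value of Tgfbr1 ranged from -0.522 to -0.253 over the 16 alternative fits. Among the type I receptors of activins and BMPs, Acvr1 fell by 0.30 in KD1 and rose by 0.54 in KD2, Acvr1b rose by 0.29 in KD1 and fell by 0.18 in KD2 (not passing without WT replicate 2, WT replicate 3 or KD2 replicate 2, adjusted p = 0.099 to 0.15), and Bmpr1a fell by 0.36 in KD1 and by 0.90 in KD2. The KD2 value of Acvr1b also did not pass with DESeq2, library size alone, 10 counts required or only the 6 cultures compared. Bmpr1a, a main BMP type I receptor, was at 199.5 to 201 CPM in WT, 149.7 to 163 in KD1 and 87.1 to 120.1 in KD2, without overlap. Of the type II receptors, Bmpr2 did not pass in any comparison (log2 fold change -0.25 in KD1 and -0.13 in KD2), but replicate 3 of KD2 decided this: without it Bmpr2 fell by 0.23 in KD1 (adjusted p = 7e-05) and was 0.30 higher in KD2 than in KD1 (adjusted p = 9.2e-06), with a KD2 value of 0.07 against WT. Acvr2a fell by 0.50 in KD1 (adjusted p = 0.004); its KD2 value of 0.22 did not pass (adjusted p = 0.13), and without replicate 3 of KD2 it rose by 0.42 (adjusted p = 1.3e-06). Acvr2b, at 2.82, 2.64 and 2.49 CPM in WT, 1.29, 1.18 and 1.49 in KD1 and 1.98, 2.10 and 2.07 in KD2, sat at the limit of the call in KD1 (log2 fold change -1.001, adjusted p = 1.3e-04) and was below it in 13 of the alternatives, reaching -0.89 less the median of its chromosome and -0.92 without KD1 replicate 2. Bmpr1b, with 0 counts in WT and KD1 and 3, 5 and 1 in KD2, Acvr1c and Acvrl1 were not tested.

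The co-receptor Tgfbr3, or betaglycan, presents TGF-beta2 to the receptors and helps inhibin to oppose activin. It was the member with the widest difference between the edited lines. Its CPM was 1.28, 0.680 and 0.293 in WT, 0.222, 0.118 and 0.242 in KD1 and 20.8, 19.1 and 16.4 in KD2. The 6 cultures of WT and KD1 were all near or below 1 CPM, and the KD2 cultures were far above them. Tgfbr3 rose 25.3-fold in KD2 (log2 fold change 4.66 ± 0.24, SE, adjusted p = 1.3e-09) and fell by 1.90 in KD1 (SE 0.51, adjusted p = 0.0057). The fall in KD1 rests on counts near the floor and was not called when only the 6 cultures compared were fitted. Its exons overlap a predicted gene on the same strand by 297 bases.

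Among the SMADs, Smad3 and Smad6 were the only members called in any comparison. Smad3, a TGF-beta and activin effector, was at 48.6, 50.2 and 48.8 CPM in WT, 29.4, 30.4 and 30.7 in KD1 and 97.1, 91.2 and 91.3 in KD2. The groups did not overlap, with WT in the middle. Smad3 fell 1.63-fold in KD1 (log2 fold change -0.71 ± 0.06, SE, adjusted p = 1.5e-07) and rose 1.89-fold in KD2 (0.92 ± 0.06, adjusted p = 6.3e-09), and KD2 exceeded KD1 3.09-fold (adjusted p = 1.1e-11). Its partner Smad2 had group means of 103 to 109 CPM and did not pass in any comparison, but without replicate 3 of KD2 it rose by 0.16 in KD2 (adjusted p = 0.0022). The common SMAD, Smad4, fell by 0.18 in KD1 (adjusted p = 0.019), and its KD2 value of 0.11 did not pass (adjusted p = 0.11) unless replicate 3 of KD2 was left out (0.18, adjusted p = 0.0011). Of the BMP effectors, Smad1 rose by 0.17 in KD1 (adjusted p = 0.024) and its KD2 value of -0.08 did not pass, while Smad5 fell by 0.22 in KD1 (adjusted p = 0.016) and by 0.69 in KD2 (adjusted p = 1.4e-06). The small KD1 changes of Smad1, Smad4 and Smad5 did not pass when WT replicate 2 or KD1 replicate 1 was left out (adjusted p = 0.059 to 0.077), nor under some of the other omissions. Smad9, the remaining BMP effector, was not tested; it had 6, 9 and 7 counts in WT, 7, 3 and 4 in KD1 and 0, 1 and 0 in KD2, a ratio of WT to KD2 of 25.4 (95% interval 4.11 to 1049). The inhibitory SMADs parted: Smad6, which restrains BMP signalling, was at 5.22, 5.84 and 5.71 CPM in WT, 2.51, 1.69 and 1.33 in KD1 and 4.65, 4.73 and 7.13 in KD2. Its KD1 cultures lay below all others and its KD2 cultures overlapped WT. Smad6 fell 3.01-fold in KD1 (log2 fold change -1.59 ± 0.22, SE, adjusted p = 2.9e-05) with a KD2 value of -0.04 (adjusted p = 0.86). Smad7, which restrains TGF-beta signalling and is induced by it, rose by 0.38 in KD1 (adjusted p = 0.002) and by 0.53 in KD2 (adjusted p = 1.1e-04).

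The latent TGF-beta binding proteins, which anchor stored TGF-beta in the matrix, were all 4 called in KD1. Ltbp1 showed the clearest separation of the lines, with 57.2, 52.3 and 49.5 CPM in WT, 6.53, 6.21 and 5.40 in KD1 and 194, 200.3 and 197 in KD2. No cultures of different lines overlapped. Ltbp1 fell 8.73-fold in KD1 (log2 fold change -3.13 ± 0.08, SE, adjusted p = 1.1e-12) and rose 3.72-fold in KD2 (1.90 ± 0.07, adjusted p = 5.4e-11), which set KD2 32.5-fold above KD1 (adjusted p = 1.3e-14). Ltbp3, with 297, 303 and 293 CPM in WT, 137, 135 and 132 in KD1 and 419.9, 413 and 531 in KD2, had the same order of groups, again without overlap. It fell 2.21-fold in KD1 (log2 fold change -1.15, adjusted p = 4e-08) and rose 1.53-fold in KD2 (0.61, adjusted p = 1.5e-05). Ltbp2, which does not bind TGF-beta itself, was the exception: its 28.2, 35.0 and 31.8 CPM in WT lay below all values of KD1 (71.0, 66.5 and 68.8) and KD2 (78.7, 79.4 and 98.7). Ltbp2 rose 2.17-fold in KD1 (adjusted p = 2.4e-07) and 2.69-fold in KD2 (adjusted p = 1.7e-08). Ltbp4 was at 77.2, 79.0 and 75.7 CPM in WT, 32.5, 34.6 and 31.3 in KD1 and 43.9, 44.3 and 57.4 in KD2, below WT in all 6 edited cultures. It fell by 1.24 on the log2 scale in KD1 (adjusted p = 5e-08) and by 0.68 in KD2 (adjusted p = 1.4e-05).

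The upstream sequence of Ltbp1 is shown because this gene differed most between the lines within its family. It is the 250 bases before the RefSeq start nearest to the principal GENCODE start, chr17:75178531-75178780 on the plus strand of GRCm38.p6, with motif letters in capitals as above. That RefSeq start was 130 bases from the principal start, and the window falls within the annotated gene, which begins at 75005568.
Ltbp1: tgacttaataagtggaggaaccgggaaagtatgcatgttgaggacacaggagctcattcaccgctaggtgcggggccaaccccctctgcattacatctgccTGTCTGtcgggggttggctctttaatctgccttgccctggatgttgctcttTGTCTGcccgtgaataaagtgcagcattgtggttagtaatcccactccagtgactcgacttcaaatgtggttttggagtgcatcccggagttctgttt
It held CAGACA on 2 occasions, both read as TGTCTG, and none of the other 3 motifs.

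The BMP antagonist genes Nog and Chrd were low in KD1. Nog, which encodes noggin and blocks BMP binding to its receptors, had 34, 48 and 41 counts in WT (1.74, 1.92 and 2.00 CPM), 3, 0 and 3 in KD1 and 44, 56 and 41 in KD2 (1.78, 1.86 and 2.02 CPM). The KD1 cultures were at the floor, and the KD2 cultures overlapped WT. By summed counts the ratio of WT to KD1 was 24.4 (95% interval 10.9 to 67.7) and that of KD2 to KD1 was 24.2 (10.8 to 67.0), with adjusted p = 2.1e-07 and 1.2e-07. The KD2 value against WT was -0.01 (adjusted p = 0.98). Chrd, which encodes chordin, was at 1.23, 1.20 and 1.17 CPM in WT, 0.258, 0.315 and 0.565 in KD1 and 2.10, 2.36 and 3.15 in KD2. The groups did not overlap, in the order KD1, WT, KD2. Chrd fell by 1.66 on the log2 scale in KD1 (adjusted p = 3.9e-04) and rose by 1.06 in KD2 (adjusted p = 8.9e-04); without replicate 3 of KD2 the latter was 0.92, under the limit of a call. Exons of Chrd overlap those of Thpo on the other strand by 239 bases. Grem1, another BMP antagonist, had at most 2 counts in any culture.

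The follistatin genes also divided between the lines. Fst, which binds and neutralizes activins, was at 11.2, 11.2 and 12.5 CPM in WT, 49.2, 47.5 and 48.6 in KD1 and 13.3, 12.4 and 9.64 in KD2. The KD1 cultures stood alone, and KD2 overlapped WT. Fst rose 4.16-fold in KD1 (log2 fold change 2.06 ± 0.10, SE, adjusted p = 3.7e-10), with a KD2 value of 0.03 (adjusted p = 0.83). In KD1, Fst and the activin gene Inhba were thus both higher than in WT, and Inhbb lower. Fstl3, a second activin binder, was at 3.28, 3.08 and 2.59 CPM in WT, 5.65, 6.57 and 5.97 in KD1 and 3.56, 2.96 and 4.18 in KD2. It rose by 1.02 in KD1 (adjusted p = 5.1e-05), 0.96 without WT replicate 3 and 0.96 without KD1 replicate 2, and its exons overlap Prss57 on the other strand by 1157 bases. Fstl1 encodes a follistatin-like glycoprotein that binds BMPs. Its CPM was 8.09, 9.12 and 8.89 in WT, 1.18, 1.14 and 1.13 in KD1 and 54.2, 54.3 and 56.5 in KD2. The groups were widely separated, with the KD2 cultures 47.6-fold above those of KD1 (log2 difference 5.57 ± 0.10, SE, adjusted p = 1.3e-14). Against WT, Fstl1 fell 7.55-fold in KD1 (adjusted p = 4.4e-11) and rose 6.31-fold in KD2 (adjusted p = 3.3e-12).

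**Figure D3:**
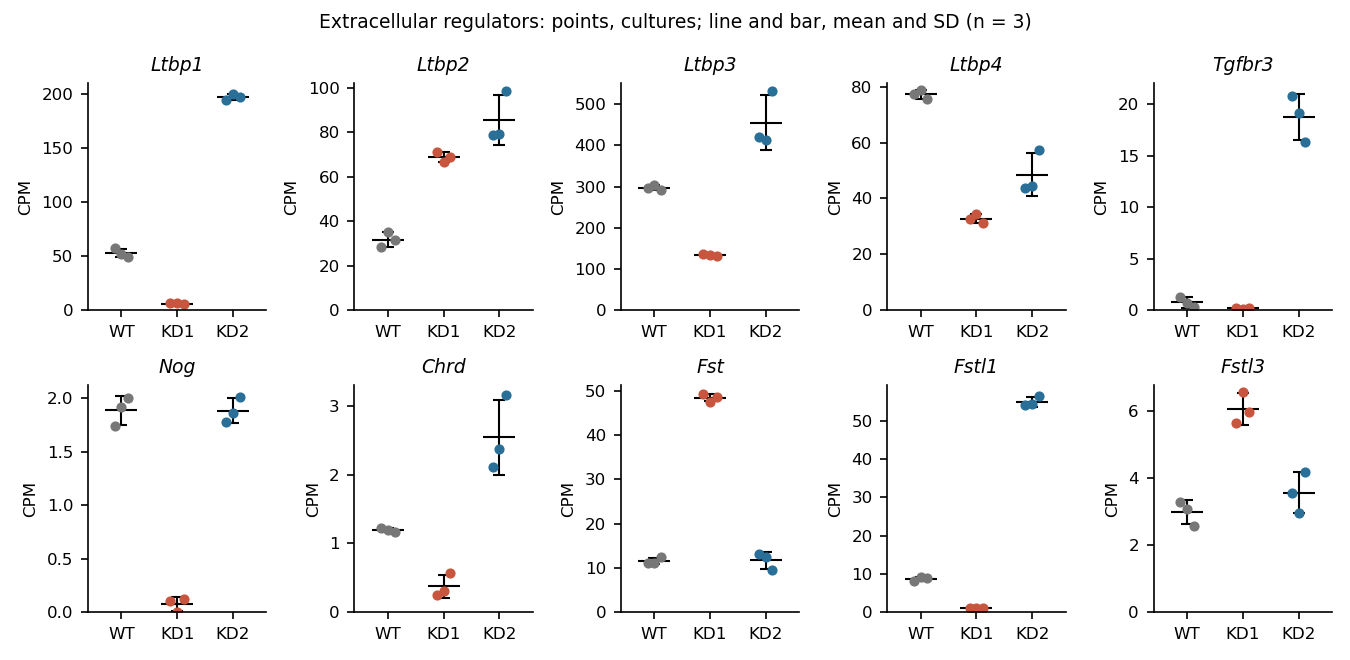
CPM in each culture (points) of 10 extracellular regulators in WT, KD1 and KD2, with mean and SD over 3 cultures; each vertical axis starts at 0 and has its own scale. Ltbp1, Ltbp3, Chrd and Fstl1 rise in the order KD1, WT, KD2, Fst stands out in KD1 only (47.5 to 49.2 CPM), and Nog is near 0 in KD1 only.

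The upstream sequence of Fstl1 is shown for the largest called change among the follistatins. It covers chr16:37776805-37777054 on the plus strand of GRCm38.p6, the 250 bases before the RefSeq start, and held GGAGCC on 1 occasion. That start was 182 bases from the principal GENCODE start, so part of the window falls within the annotated gene.
Fstl1: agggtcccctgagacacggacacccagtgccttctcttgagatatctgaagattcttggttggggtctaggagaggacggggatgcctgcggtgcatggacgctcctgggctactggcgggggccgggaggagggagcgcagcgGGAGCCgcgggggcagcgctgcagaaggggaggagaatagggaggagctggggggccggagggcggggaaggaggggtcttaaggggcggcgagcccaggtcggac

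The ID genes encode inhibitors of basic helix-loop-helix factors and are induced by BMPs in many cells. They did not move as a family. Id4, which is expressed in basal mammary cells, was at 214.9, 187 and 212 CPM in WT, 9.23, 7.90 and 7.74 in KD1 and 15.7, 14.6 and 12.8 in KD2. All 6 edited cultures were far below WT. Id4 fell 24.6-fold in KD1 (log2 fold change -4.62 ± 0.10, SE, adjusted p = 1.1e-13) and 14.2-fold in KD2 (-3.83 ± 0.09, adjusted p = 1.1e-12). Id1 was at 85.1 to 127 CPM in WT, 87.9 to 97.9 in KD1 and 78.7 to 105 in KD2, overlapping throughout. Its values of -0.28 in KD1 (adjusted p = 0.086) and -0.32 in KD2 (adjusted p = 0.045) lay on either side of the threshold; the KD2 value missed it in 7 of the 9 fits that left out 1 culture, all but those without WT replicate 1 or KD2 replicate 3, and without either of these the KD1 value passed (adjusted p = 0.0038 and 0.03). Id2 fell by 0.21 in KD1 (adjusted p = 0.023; 0.097 to 0.18 without WT replicate 2 or 3 or KD1 replicate 1 or 3) and rose by 0.39 in KD2 (adjusted p = 2.4e-04). Id3 did not pass in KD1 (0.05, adjusted p = 0.76) and rose by 0.54 in KD2 (adjusted p = 0.0024), with 109, 107 and 162 CPM in the KD2 cultures, the highest being replicate 3; without it the rise was 0.34. None of Id1, Id2 and Id3 was called in any comparison.

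The upstream sequence of Id4 is set beside those of Id2 and Id3, which were added for contrast after their values were seen, because these family members differed in their response. They cover chr13:48260866-48261115 on the plus strand, chr12:25096093-25096342 on the minus strand and chr4:136143572-136143821 on the plus strand of GRCm38.p6. Their RefSeq starts lay 112 (Id4), 1048 (Id2) and 325 (Id3) bases from the principal GENCODE start. The Id2 and Id3 windows thus fall within the annotated genes, upstream of a RefSeq start only. Capitals mark the motifs as above.
Id4: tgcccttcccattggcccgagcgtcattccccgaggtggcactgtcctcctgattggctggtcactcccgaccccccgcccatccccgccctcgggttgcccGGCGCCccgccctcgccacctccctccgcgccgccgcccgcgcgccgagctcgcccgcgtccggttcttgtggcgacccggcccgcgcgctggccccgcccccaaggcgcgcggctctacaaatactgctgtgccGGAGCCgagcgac
Id2: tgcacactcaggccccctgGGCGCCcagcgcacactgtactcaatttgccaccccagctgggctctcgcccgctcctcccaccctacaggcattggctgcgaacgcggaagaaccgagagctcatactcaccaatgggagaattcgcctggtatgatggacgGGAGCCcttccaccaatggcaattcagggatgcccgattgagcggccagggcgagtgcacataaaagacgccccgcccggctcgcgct
Id3: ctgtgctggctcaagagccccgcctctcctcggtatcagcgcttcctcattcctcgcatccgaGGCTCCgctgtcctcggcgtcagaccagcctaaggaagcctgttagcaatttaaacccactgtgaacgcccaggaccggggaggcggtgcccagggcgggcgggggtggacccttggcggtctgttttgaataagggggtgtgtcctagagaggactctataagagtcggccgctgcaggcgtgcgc
GGCGCC and GGAGCC each occurred 1 time in Id4 and in Id2, and GGAGCC occurred 1 time in Id3. The windows lie at unlike distances from the principal starts, and the part of these motifs in the responses was not tested. Id1 had no entry in the table.

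**Figure D4:**
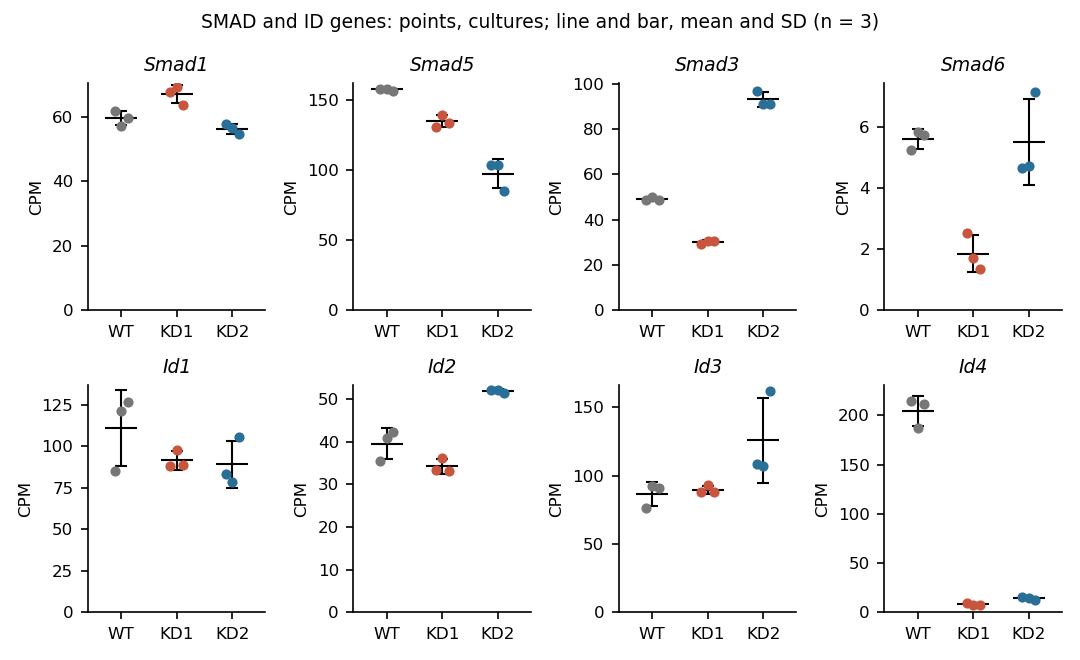
CPM in each culture (points) of 4 SMAD and 4 ID genes in WT, KD1 and KD2, with mean and SD over 3 cultures; each vertical axis starts at 0 and has its own scale. Id4 drops from 187 CPM or more in WT to 15.7 or less in the edited lines, Smad3 rises in the order KD1, WT, KD2, and Id1 overlaps between groups.

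Levels of different genes were compared per kilobase of exon, with the exons of all annotated transcripts merged. In WT the highest members by mean ± SD (n = 3) were Id1 (95.7 ± 19.5 CPM per kilobase), Id4 (53.1 ± 4.01), Id3 (48.4 ± 5.00) and Inhba (44.9 ± 4.83). The SD ranges of Id4, Id3 and Inhba overlapped. The genes were measured in the same cultures, and their order within cultures was not tested. In KD1 the first place was taken by Inhba (99.6 ± 2.54), ahead of Id1 (78.8 ± 4.87) and Id3 (50.2 ± 1.67). In KD2 the order was Id1 (76.7 ± 12.3), Id3 (70.4 ± 17.4) and Ltbp3 (50.2 ± 7.31), with overlapping SD ranges for Id1 and Id3. Id4 was second in WT and outside the highest 10 in both edited lines.

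In KD2 some chromosomes were shifted as a whole, which touches several members. The median log2 fold change against WT was -0.66 over the 591 genes tested on chromosome 13, -0.63 on chromosome X and -0.46 over the 495 on chromosome 14. In KD1 no chromosome median was beyond -0.27 or 0.15. Members on chromosome 13 were Inhba, Id4, Smad5 and Fst, beside Bmp6, which was not tested. Less the chromosome's median, the KD2 value was -0.98 for Inhba, under the limit of a call, -3.17 for Id4, -0.03 for Smad5 and 0.69 for Fst. On chromosome 14, Bmpr1a came to -0.43 and Bmp1 to -0.14 on that scale. The part of copy number in these values was not tested.

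**Figure D5:**
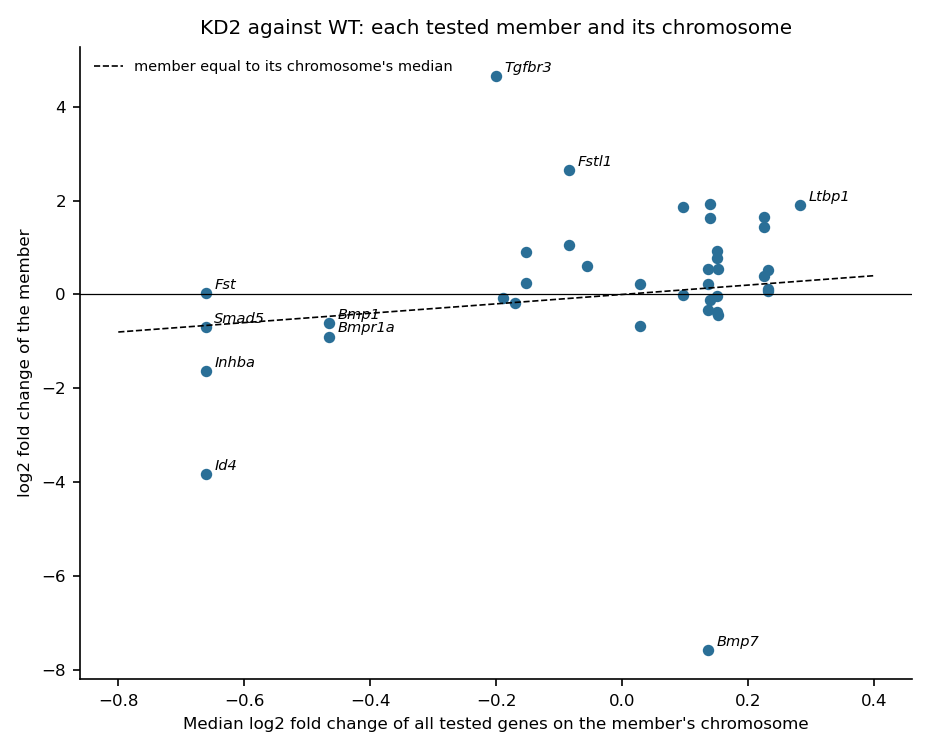
The log2 fold change of each tested member in KD2 against WT (vertical axis) against the median of all tested genes on its chromosome (horizontal axis); the dashed line marks a member equal to its chromosome. Smad5 (-0.69) lies close to the line, Inhba, Id4 and Bmp7 lie below it, and Tgfbr3, Fstl1 and Ltbp1 well above it.

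Genes around the members were read from 5 lists of 93 further pathway genes, written with earlier results of these data known, of which 68 were tested. Among them 6 were called higher and 13 lower in KD1 (8.82% and 19.1%, beside 9.34% and 7.49% of all genes), and 10 higher and 7 lower in KD2 (14.7% and 10.3%, beside 14.5% and 6.71%). KD2 against KD1 gave 19 higher and 5 lower (27.9% and 7.35%, beside 14.7% and 8.58%). The shares called higher in each line were close to those of all genes. The lists' medians are set beside -0.03, 0.01 and 0.02 for all genes tested.

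The list of 21 TGF-beta and activin response genes had 4 called higher and 6 lower in KD1, with a median log2 fold change of -0.49, and 6 higher and 2 lower in KD2, with a median of 0.42. Between the edited lines, 10 of the 21 were called higher in KD2 and 2 lower. Fn1, the matrix protein fibronectin, was at 3166 ± 281 CPM in WT, 457 ± 4.92 in KD1 and 8763 ± 508 in KD2 (mean ± SD, n = 3), a fall of 6.93-fold (adjusted p = 3.8e-13) and a rise of 2.77-fold (adjusted p = 2.7e-10). Lmcd1, a transcriptional cofactor, had the same order of groups, at 1.97 CPM in WT, 0.194 in KD1 and 14.4 in KD2. Postn, the matrix protein periostin, fell by 5.56 on the log2 scale in KD1 and by 1.62 in KD2. Tgfbi, named for its induction by TGF-beta, fell by 0.49 in KD1 and by 5.94 in KD2, where it was at 0.243 CPM; it lies on chromosome 13.

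The list of BMP response genes, 8 of 11 tested, had 1 called higher and 3 lower in KD1 (median -0.89) and 1 higher and 2 lower in KD2 (median -0.46), and in KD2 against KD1 4 were higher and 0 lower. Hey1, a Notch and BMP target, was at 19.6 CPM in WT, 0.413 in KD1 and 8.01 in KD2 and fell in both (log2 fold changes -5.55 and -1.29). Dlx5, a homeobox gene, fell by 3.12 in KD1 and by 0.40 in KD2. Bambi, a pseudoreceptor that dampens signalling, was at 5.54 CPM in WT, 0.516 in KD1 and 8.34 in KD2, falling 10.6-fold and rising 1.51-fold. Atoh8 was called higher in KD2 from a WT level under the floor.

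Of 13 further extracellular regulators tested, 1 was called higher and 3 lower in KD1, and 2 each way in KD2. Bmper, which binds BMPs, fell by 3.45 on the log2 scale in KD1 and rose by 0.38 in KD2, the same order of groups as Chrd. Chrdl1, a chordin-like gene, had the opposite order, at 28.1 CPM in WT, 49.1 in KD1 and 14.45 in KD2. It rose by 0.81 in KD1 (adjusted p = 2.4e-05), fell by 0.945 in KD2 and was called lower in KD2 against KD1 (-1.75). Chrdl1 lies on chromosome X, whose median was -0.629 in KD2 against WT and -0.533 in KD2 against KD1. Sostdc1, a secreted BMP and WNT antagonist, was at 27.6 CPM in WT and at the floor in both edited lines. Of the integrin subunits that take part in activating latent TGF-beta, Itgb6 rose by 1.87 in KD1 and Itgb8 fell by 2.82; in KD2 both fell, by 0.73 and 1.09. Itgav, their partner subunit, was not called and rose by 0.45 in KD1 and by 0.22 in KD2; it is named although outside the rule for named genes. Of 5 other ligands and co-receptors tested, Eng, the co-receptor endoglin, fell by 1.23 in KD1 and rose by 1.44 in KD2, and Amh was called lower in KD2. Of 21 intracellular regulators tested, 0 were called against WT in either line by edgeR, although 13 passed the adjusted p in KD1 and 18 in KD2; Smurf1, a ubiquitin ligase that targets SMADs and receptors, rose by 0.97 in KD1, fell by 0.50 in KD2 and was called in KD2 against KD1 (log2 difference -1.47, adjusted p = 1e-10).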

How the data were processed

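The authors deposited raw counts of reads per gene for 55228 genes in 9 cultures. Per the labels and methods, poly-A RNA libraries (NEBNext Ultra) were sequenced in pairs, trimmed with fastp, mapped to GRCm38 with HISAT2 and counted with featureCounts; whether counting used strand is not given in the sources used here, and exons of 20 members overlap another gene, so that reads there may be counted on either. Lines and replicate numbers came from the labels. Counts were fitted here with edgeR 4.0.16 (quasi-likelihood test, TMM scaling, its expression filter, all 9 cultures in 1 fit, no block) in R 4.3.3, with Benjamini-Hochberg adjustment over 15253 genes. A call needed an absolute log2 fold change above 1 beside an adjusted p under 0.05. Standard errors were derived from fold change and F statistic. Where a group had at most 3 counts in every culture, ratios of summed counts carry exact 95% Poisson intervals, which cover counting error only. Positions and exon lengths came from GENCODE M21, in which 53569 of the symbols matched, and promoters from RefSeq (GRCm38.p6), which held 44 of the 62 members.

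The members and the lists of pathway and marker genes were chosen with earlier results of these data known. Values per culture are given for members called in at least 1 of the 3 comparisons, as a range where the highest group mean was under 1 CPM. At most 4 genes of a pathway list are named, those with the largest absolute log2 fold change against WT, or called in KD2 against KD1 alone. Fn1, Itgav and Chrdl1 are named beyond these. Alternatives were DESeq2 1.42.0, RLE size factors, library size alone, no filter beyond 1 count, at least 10 counts in every culture, the 6 cultures compared alone, the replicate number as a block, leaving out each culture and, chosen after seeing the data, subtracting the chromosome median. The script was tested on simulated data. The values of 1 member that was not tested are not reported here. Depth was 19231428 to 28360592 counts per culture.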

Additional observations from a re-analysis of the deposited data

Results flagged for a closer look

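The direct test of KD2 against KD1 used edgeR with Benjamini-Hochberg adjustment over all genes tested. On the adjusted p alone, 21 members passed as higher in KD2 and 11 as lower. With an absolute log2 fold change above 1 as well, 15 members were called. The 12 called higher were 31.6% of members tested and the 3 lower 7.89%. Of all genes tested, 14.7% were called higher and 8.58% lower. Higher in KD2 were Tgfb2 (log2 difference 1.09), Tgfb3 (2.98), Inhbb (3.80), Gdf9 (1.85), Tgfbr3 (6.56), Smad3 (1.63), Smad6 (1.55), Ltbp1 (5.02), Ltbp3 (1.76), Nog (4.51), Chrd (2.72) and Fstl1 (5.57). Lower in KD2 were Tgfb1 (-1.27), Inhba (-2.79) and Fst (-2.03). The fitted values of Nog, Gdf9 and Tgfbr3 rest on counts near the floor in KD1 and depend on the prior count of the fit. Each line is 1 clone, so a difference between guides and a difference between clones cannot be told apart.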

How the results depend on the processing

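Depth limits the low members: Bmp7, Nog, Chrd, Gdf9 and Tgfbr3 had under 10 counts in some cultures. When 10 counts were required throughout, fewer genes were tested, and 8 members were called lower in KD1 (13 before), with 7 pathway list genes lower in KD1 (13 before) and 2 lower in KD2 (7 before). Under that filter 4.50% of all genes tested were called lower in KD1 and 4.27% in KD2 (7.49% and 6.71% before). How many list genes were left under it is not given, so the list counts carry no share to set beside these. The other counts of calls stayed within 1.5 times under every alternative run. Leaving out each culture in turn, members called ranged from 5 to 6 higher and 12 to 13 lower in KD1, 8 to 9 higher and 3 to 3 lower in KD2, and 12 to 12 higher and 3 to 3 lower in KD2 against KD1. The pathway list calls ranged from 6 to 6 higher and 12 to 14 lower in KD1, 10 to 11 higher and 6 to 10 lower in KD2, and 18 to 21 higher and 5 to 5 lower in KD2 against KD1. The highest of these counts lower in KD2 was 10, against 7 with all cultures.

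Same-numbered cultures did not deviate together (correlations over genes of -0.065 to 0.079, 0 of 9 pairs over 0.1), so the numbers were not taken to pair them. With the replicate number as a block, 6 members were called higher and 13 lower in KD1, 9 and 3 in KD2, and 12 and 3 in KD2 against KD1; under the block Acvr2b in KD2 (-0.37, adjusted p = 0.082) no longer passed.

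The values that changed sign did not pass with all cultures; the cause was not tested. With library size alone, the log2 fold change was -0.007 for Gdf9 in KD1, 0.030 for Smad1, 0.068 for Smad6 and 0.10 for Nog in KD2, and 0.085 for Id1 in KD2 against KD1. With no filter beyond 1 count, Smad2 was at -0.003 in KD2 against KD1 and Fst at -0.003 in KD2. With 10 counts required Smad6 was at 0.027 in KD2, and Nog in KD2 was at 0.006 with DESeq2 and 0.004 with RLE size factors. Leaving out each culture in turn, the sign varied for Gdf9 in KD1 (-0.356 to 0.786), Bmpr2 in KD2 (-0.232 to 0.072), Smad6 in KD2 (-0.230 to 0.065), Nog in KD2 (-0.063 to 0.058), Fst in KD2 (-0.060 to 0.167), Id1 in KD2 against KD1 (-0.171 to 0.040), Id3 in KD1 (-0.030 to 0.124) and Vangl2 in KD2 (-0.038 to 0.134). Single-gene calls lost were Acvr2b in KD1 under 13 alternatives, Inhba in KD2 (-0.98) and Tgfb2 in KD2 against KD1 (0.96) less the chromosome median, and those named beside their results. Acvr2b in KD2 (adjusted p = 0.048) missed the threshold in all 16 alternative fits (adjusted p = 0.054 to 0.16). Gained were Gdf11 in KD2 with library size alone (1.02) and less the chromosome median (1.06), Smad3 in KD2 with library size alone (1.03) and Id4 in KD2 against KD1 less the chromosome median (1.41).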

Other observations

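Among members below the filter, Bmp8a had 1, 1 and 0 counts in WT, 3, 1 and 0 in KD1 and 6, 5 and 5 in KD2, a ratio of KD2 to WT of 6.92 (95% interval 1.63 to 62.1, exact, counting error only). Gdf7 had 11 counts over the KD2 cultures and 1 over those of WT, a ratio of 9.52 (1.38 to 410). Acvr1c had 0 counts in WT and 3, 7 and 3 in KD2. Gdf15, a stress-induced ligand that is abundant in many cultured cells, had 1 to 3 counts in every culture of every line. The summed CPM of the activin subunit genes Inhba and Inhbb was 304 to 357 in WT, 628 to 661 in KD1 and 208 to 220.2 in KD2, above WT in all 3 KD1 cultures and below it in all 3 KD2 cultures.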
